A study of Homo sapiens with 8 samples.

Results

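Small nucleolar RNA (snoRNA) host genes are transcription units whose introns carry snoRNAs. The host genes described here are the 33 genes of the deposited table whose symbol begins with SNHG and a digit, together with GAS5, ZFAS1, DANCR, EPB41L4A-AS1 and TAF1D, out of 60612 genes in all. Of the 33, 32 are annotated as long non-coding RNAs (lncRNAs) and TAF1D as protein coding, and they lie on 15 chromosomes. RNA was sequenced from 5637 and UM-UC3 cells, established human bladder cancer (BLCA) cell lines, after 24 h of melatonin treatment at 1, 2 or 4 mM or of the DMSO vehicle (0 mM). There was 1 library for each dose and line, so 8 in all, and no replicate of any dose. The medium was RPMI for 5637 and MEM for UM-UC3, and a difference between the lines cannot be told apart from one between the media. The comparisons asked how the transcripts of the host genes followed the melatonin dose in each line, whether that response differed between the lines, and how their levels differed between the lines.

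In a typical host gene the snoRNAs are trimmed out of the excised introns, while the exons are spliced into a separate transcript. The snoRNAs guide chemical modification or cleavage of ribosomal RNA, box C/D snoRNAs mainly 2′-O-methylation and box H/ACA snoRNAs mainly pseudouridylation. Many host genes start transcription at a C followed by a run of pyrimidines, the 5′ terminal oligopyrimidine (TOP) signal that they share with messenger RNAs of ribosomal proteins and translation factors. The spliced RNA of GAS5 and of several other host genes has short open reading frames and is degraded by nonsense-mediated decay (NMD) when it is translated, so that it is known to accumulate when translation is blocked. Several of these lncRNAs, among them GAS5, SNHG1, SNHG16 and DANCR, have been studied in cancer cells. The poly(A) libraries used here measured the spliced host transcripts.

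Start-site sequences of 29 of the 33 host genes were available from RefSeq (GRCh38.p14), as 250 bases before and 50 bases from the annotated start on. At the start, 8 of the 29 (27.6%) had a C followed by at least 4 further pyrimidines (C or T), against 1429 of 35116 RefSeq promoters (4.07%). They were SNHG4, SNHG5, SNHG12, SNHG18, SNHG19, SNHG32, TAF1D and ZFAS1. A run of at least 8 pyrimidines within 10 bases of the start was present in 31% of the host genes and in 15.6% of all promoters. The E-box CACGTG, searched on both strands in the whole window, was found in SNHG7 and SNHG30, 6.9% of the host genes, against 7.26% of all promoters. The core of the amino acid response element, TGATGNAAN on either strand, was found in 0 of 29 and in 3.61% of all promoters. Such matches are a description of the letters in these windows. The 40 bases around the start are printed for 7 host genes with the pyrimidine run, in capitals, and then for 6 host genes without it whose dose response is described later, so that the starts can be compared. The RefSeq start was at most 464 bases from the start in the deposited table for these genes except SNHG12, where it lay 1259 bases away, and TAF1D, where it lay 42896 bases away. It lay 163 bases away for GAS5 and 68 for SNHG1. The rule looked at the RefSeq start alone, so a gene printed without the run may have it at another start.
ZFAS1 (chr20:49278622-49278661, plus strand): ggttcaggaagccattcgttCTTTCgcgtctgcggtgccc
SNHG5 (chr6:85678714-85678753, minus strand): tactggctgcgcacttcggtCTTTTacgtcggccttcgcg
SNHG32 (chr6:31834896-31834935, plus strand): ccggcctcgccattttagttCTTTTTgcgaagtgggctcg
SNHG12 (chr1:28581854-28581893, minus strand): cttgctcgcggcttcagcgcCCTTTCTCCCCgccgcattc
TAF1D (chr11:93741476-93741515, minus strand): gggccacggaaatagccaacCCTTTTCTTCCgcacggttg
SNHG4 (chr5:139274081-139274120, plus strand): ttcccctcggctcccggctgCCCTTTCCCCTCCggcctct
SNHG19 (chr16:2155339-2155378, minus strand): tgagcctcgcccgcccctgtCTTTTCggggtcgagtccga
GAS5 (chr1:173869026-173869065, minus strand): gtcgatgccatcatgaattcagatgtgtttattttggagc
SNHG7 (chr9:136728165-136728204, minus strand): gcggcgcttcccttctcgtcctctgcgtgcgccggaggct
SNHG8 (chr4:118278742-118278781, plus strand): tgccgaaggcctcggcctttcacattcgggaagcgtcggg
SNHG1 (chr11:62855866-62855905, minus strand): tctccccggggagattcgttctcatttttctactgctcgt
SNHG16 (chr17:76557744-76557783, plus strand): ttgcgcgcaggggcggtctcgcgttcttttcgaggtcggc
SNHG26 (chr7:22854220-22854259, plus strand): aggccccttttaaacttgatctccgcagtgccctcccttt

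In the deposited coordinates, 27 of the 33 host genes held at least 1 row named SNORD or SNORA on their own strand, and 6 (GAS5, SNHG10, SNHG20, SNHG21, SNHG22 and SNHG28) held none. The count rests on row names and spans in that annotation. A gene listed with none may still host snoRNAs that have no such row or another name. SNHG14, in the imprinted Prader-Willi region of chromosome 15, held 83 of the 143 nested snoRNAs, including the SNORD115 cluster. TAF1D held 8 (SNORD5, SNORD6 and 6 of the SNORA class), SNHG1 held 7, and SNHG12 and SNHG17 held 5 each. The snoRNAs themselves were barely measured, as is usual after selection of poly(A) RNA. Of the 143, 58 were listed at 0 in every library and 10 reached an FPKM of 1 in any. The highest value, 6.82, was for SNORD6 of TAF1D in the UM-UC3 library at 4 mM. All that follows therefore concerns the host transcripts.

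The deposited values were read as FPKM, fragments scaled to transcript length and to library size, so each is a share of the library and not an amount per cell. Read counts were not given and the depth of each library is unknown. The FPKM of all genes summed to 332961 to 342526 in the 5637 libraries and 346772 to 395621 in the UM-UC3 libraries. Markers of the labelled cells were present in 5637, where 9 of 11 epithelial genes had a mean FPKM of at least 1. In UM-UC3 only KRT7, KRT8 and KRT18 of these did. Of 9 mesenchymal genes 4 reached that mean in each line, and they did not share a direction. VIM, an intermediate filament, was at 1140 to 1210 in UM-UC3 against 24 to 63 in 5637. COL3A1 and ACTA2 reached 7.64 and 4.28 in UM-UC3 and 0.325 and 2.05 in 5637. CDH2 was at 6.51 to 14.4 in UM-UC3 against 14 to 38.4 in 5637, and COL1A1 at 0.00775 to 0.103 against 6.34 to 9.68. The urothelial markers UPK2 and UPK3A were under 1 in every library. The endothelial list stayed under 1 in every library, as did the leukocyte markers PTPRC, CD3E, CD14 and LYZ, while CD68 was at 53 to 106 in UM-UC3. The FPKM sum of the epithelial list was 3800 at 0 mM and 1010 at 4 mM in 5637, and 203 and 98.4 in UM-UC3. It moved alongside the dose trends of the host genes, and its part in them was not tested.

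Host genes took a larger share of the transcriptome in UM-UC3 than in 5637 cells. The FPKM of the 33 genes summed to 569 at 0 mM, 486 at 1 mM, 506 at 2 mM and 835 at 4 mM in 5637, which was 0.166, 0.145, 0.151 and 0.251% of the library. In UM-UC3 the sums were 2331, 2224, 2216 and 3155, or 0.672, 0.636, 0.612 and 0.798%. The 4 mM library was thus the highest in each line, and the lowest UM-UC3 library was above the highest 5637 library. Of the 33 genes, 29 had a mean FPKM of at least 1 over the 8 libraries and were tested, 23 of them at 1 or more in every library and 6 not. Values were tested as log2(FPKM + 1) with limma, in a fit over all 12649 genes with a mean of at least 1, and a gene is called where its Benjamini-Hochberg adjusted p over all those genes was under 0.05. A fold on this scale understates changes of low genes. With 1 library per dose, these p-values measure the scatter of single libraries around a straight line and not the variation between cultures.

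At matched doses 17 of the 29 host genes were higher in UM-UC3 and 3 were lower (limma, the cell line term). Of the lower genes, SNHG14 passed the filter on mean FPKM only through 5637. SNHG18, with a similar split, had a mean of 0.964 and was not tested. Among all tested genes 30% were higher and 36.7% lower in UM-UC3. All 4 UM-UC3 libraries lay above all 4 of 5637 for 14 host genes, against 22.7% of all tested genes, and below them for SNHG14 alone, against 28.4%. The median difference was 0.59 on the log2 scale for the host genes and −0.1 for all tested genes. Of the 20 called differences, 16 were called under every alternative in which they were tested, 14 higher and 2 lower in UM-UC3, and the calls of SNHG12, SNHG15, SNHG19 and SNHG30 were not.

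SNHG5, the host of the U50 snoRNAs, had the largest difference. From 0 to 4 mM its FPKM was 2.97, 3.38, 3.41 and 5.76 in 5637 and 45.2, 38.3, 41.3 and 87.2 in UM-UC3. The mean in UM-UC3 was 13.7 times that in 5637, a log2 difference of 3.42 (SE 0.17, adjusted p = 3.71e-07). SNHG29, on chromosome 17 at 16438767 to 16478678, carries SNORD49A, SNORD49B and SNORD65 and was the most abundant host transcript. It was at 72.6, 53.2, 74.9 and 102 in 5637 and at 700, 759, 739 and 867 in UM-UC3, 10.1 times higher (log2 difference 3.36, SE 0.16, adjusted p = 2.44e-07). SNHG32, which carries SNORD48 and SNORD52, was at 14.8, 17.4, 15.5 and 27.3 in 5637 and 142, 135, 143 and 223 in UM-UC3, 8.56 times higher (log2 difference 3.04, SE 0.14, adjusted p = 2.22e-07). In these 3 genes the groups did not overlap, and on the log2 scale the gap between them exceeded the spread over doses within either line.

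EPB41L4A-AS1, an lncRNA antisense to EPB41L4A that carries SNORA13, was called in no dose fit, as was SNHG29. It was at 1.88, 2.04, 1.49 and 2.14 in 5637 and 16.5, 10.3, 9.77 and 14.6 in UM-UC3, 6.77 times higher (log2 difference 2.23, SE 0.19, adjusted p = 8.11e-06). The groups did not overlap, and its fitted dose change over both lines was 0.02 on the log2 scale (SE 0.25). Among the more dose-responsive genes, the ratio of mean FPKM in UM-UC3 to that in 5637 was 7.91 for SNHG4, 5.01 for SNHG8, 4.83 for GAS5, 4.03 for SNHG6, 3.5 for SNHG7, 3.15 for ZFAS1, 2.89 for SNHG1, 2.42 for SNHG3, 2.4 for TAF1D and 1.44 for SNHG16. All of these were called higher in UM-UC3. SNHG19, the host of SNORD60, was at 3.003, 2.43, 1.69 and 2.90 in 5637 and 4.06, 4.36, 3.19 and 5.05 in UM-UC3 (log2 difference 0.56, SE 0.18, adjusted p = 0.0208). Its groups did not overlap, though by a narrow margin.

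SNHG14 went the other way and was near 0 in UM-UC3. It was at 4.95, 6.22, 7.88 and 11.6 in 5637 and at 0.0303, 0.0597, 0.00472 and 0.0129 in UM-UC3. Only its values in 5637, with a mean of 7.65 against 0.0269 in UM-UC3, took it past the filter on mean FPKM. Its level call (log2 difference −3.02, SE 0.19, adjusted p = 1.25e-06) is therefore no separate support for the split. SNRPN, the protein-coding gene of the same imprinted unit, whose span overlaps that of SNHG14 on the same strand, had the same split, at 11.9 to 23.2 in 5637 and at most 0.116 in UM-UC3. Reads shared between those overlapping annotations could be assigned to either. UBE3A, on the opposite strand of this region, was at 28.8 to 33.1 in 5637 and 14.2 to 20.9 in UM-UC3. SNHG26 was also lower in UM-UC3, by 1.04 on the log2 scale (SE 0.19, adjusted p = 0.000883). SNHG30, the host of SNORD7, was at 2.82, 1.37, 1.99 and 6.19 in 5637 and 1.503, 1.42, 0.937 and 0.687 in UM-UC3 (log2 difference −0.82, SE 0.32, adjusted p = 0.0448), and its groups overlapped. Without 1 library the level call was lost for SNHG12 (5637 at 2 or 4 mM, UM-UC3 at 0 or 4 mM, adjusted p of 0.0506 to 0.0756), SNHG15 (5637 at 1, 2 or 4 mM, UM-UC3 at 2 or 4 mM, 0.0779 to 0.124), SNHG19 (5637 at 2 mM, UM-UC3 at 0, 1 or 4 mM, 0.0518 to 0.0564) and SNHG30 (5637 at 0 or 4 mM, UM-UC3 at 1, 2 or 4 mM, 0.0555 to 0.132).

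**Figure D1:**
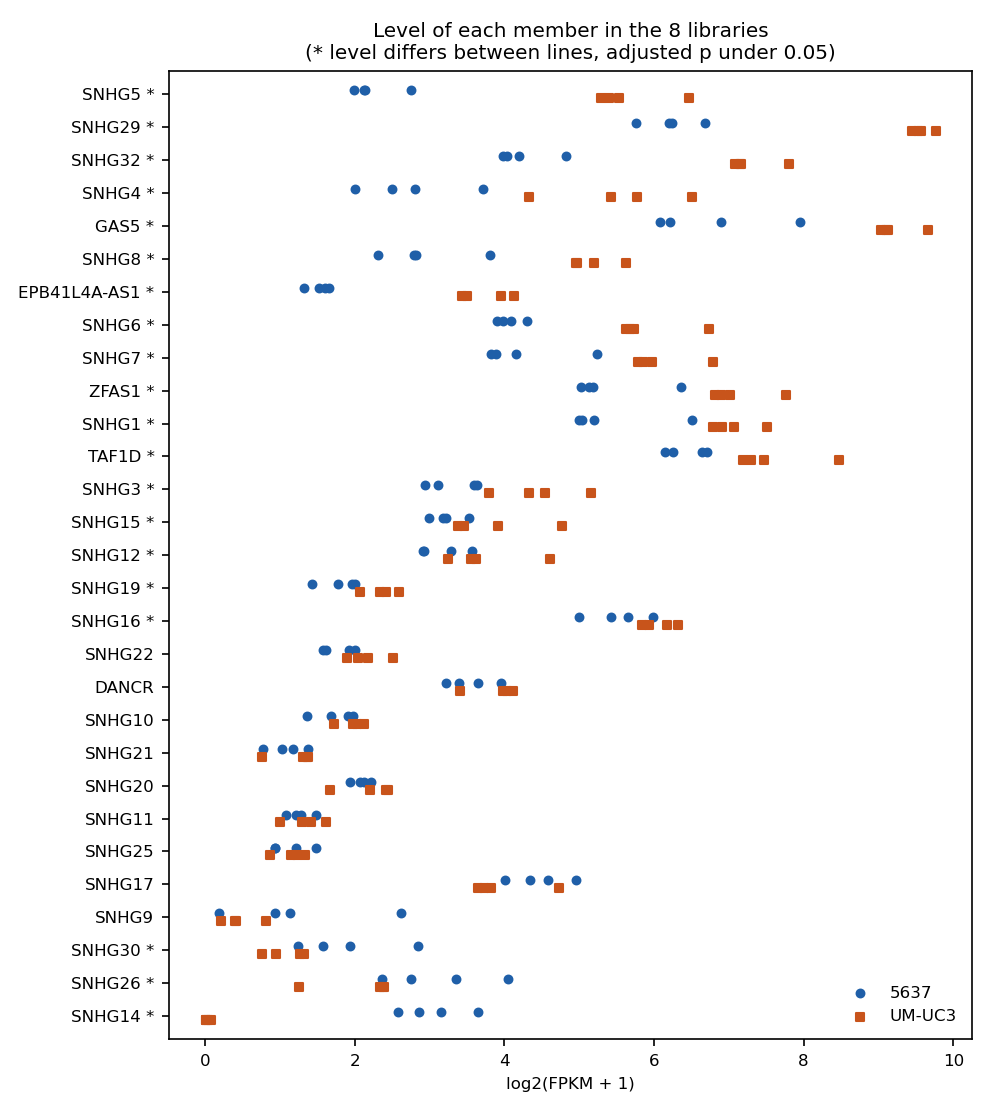
Level of the 29 tested host genes in the 8 libraries as log2(FPKM + 1), with 5637 as blue circles and UM-UC3 as orange squares, 4 libraries each, ordered by the difference between the lines and starred where limma called it. For SNHG5, SNHG29 and SNHG32 at the top the UM-UC3 points lie far to the right of all 5637 points, and SNHG14 at the bottom shows the reverse.

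Over both lines together, 7 host genes rose with the melatonin dose (GAS5, SNHG5, SNHG7, SNHG8, SNHG12, SNHG32 and ZFAS1), 3 fell (SNHG4, SNHG16 and SNHG26) and 19 were not called. Among all tested genes 12.1% rose and 12.8% fell. Fold changes of dose are given as the fitted log2 change from 0 to 4 mM, and their median was 0.26 for the host genes and −0.01 for all tested genes. In 10 of the 29 host genes the 4 mM library was the highest of its line in both lines, against 16.9% of all tested genes, and in 1, SNHG26, it was the lowest in both, against 20.2%. Most of the rise of the 7 genes lay between 2 and 4 mM, although GAS5 in 5637 was already higher at 2 mM. From 0 to 2 mM their FPKM changed 0.816 to 1.61 times in 5637 and 0.867 to 1.19 times in UM-UC3, and from 2 to 4 mM 1.64 to 2.67 times and 1.35 to 2.11 times. Without both 4 mM libraries 0 host genes were called as rising by limma over both lines, with 1 at an unadjusted p under 0.05. In that fit 192 of all 12649 tested genes rose, against 1533 with every library.

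GAS5, which was first found among transcripts that accumulate in growth-arrested cells and lies on chromosome 1 at 173858559 to 173868882, had the largest called rise. Its FPKM over the 4 doses was 73.0, 66.3, 118 and 248 in 5637 and 549, 524, 557 and 807 in UM-UC3. The fitted change over both lines was 1.26 (SE 0.31, adjusted p = 0.0177). In 5637 the transcript was already above DMSO at 2 mM, while in UM-UC3 only the 4 mM library stood apart from the rest.

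ZFAS1, antisense to ZNFX1 and host of the SNORD12 snoRNAs, was at 34.1, 31.6, 35.5 and 80.9 in 5637 and 129, 118, 111 and 216 in UM-UC3, a change of 1.04 (SE 0.27, adjusted p = 0.022). SNHG7, which carries SNORA17A and SNORA17B, was at 16.9, 13.2, 13.8 and 36.8 in 5637 and 54.3, 61.6, 56.6 and 109 in UM-UC3, a change of 1.08 (SE 0.29, adjusted p = 0.025). SNHG8, the host of SNORA24, was at 5.92, 3.96, 6.04 and 13.0 in 5637 and 30.2, 30.5, 35.8 and 48.4 in UM-UC3, a change of 0.96 (SE 0.25, adjusted p = 0.024). In each of these the 4 mM library was the highest of its line, and in 5637 at least 1 lower dose was under DMSO. ZNFX1 was at 20.2 in 5637 at 4 mM against 9.72 to 12.3 at lower doses, and at 7.52 to 12.6 in UM-UC3 with its lowest value at 4 mM.

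The other 3 rising genes, SNHG5, SNHG32 and SNHG12, start with the pyrimidine run printed above, as does ZFAS1. SNHG5, whose values are given with the levels, changed by 0.89 (SE 0.23, adjusted p = 0.0211), and its 4 mM value was 1.94 times DMSO in 5637 and 1.93 times in UM-UC3. SNHG32 changed by 0.75 (SE 0.19, adjusted p = 0.0193), with ratios of 1.85 and 1.57. SNHG12, a host of both snoRNA classes, was at 6.54, 8.73, 6.59 and 10.8 in 5637 and 10.8, 8.47, 11.3 and 23.5 in UM-UC3, a change of 0.87 (SE 0.27, adjusted p = 0.0416). SNHG12 was the weakest of the 7 and was called in 2 of the 8 fits that left out 1 library, those without the 5637 library at 1 or 2 mM. All 7 rising calls were lost without the 5637 library at 4 mM, with adjusted p of 0.0833 for GAS5, 0.111 for ZFAS1, 0.129 for SNHG7, 0.123 for SNHG8, 0.0534 for SNHG5, 0.0802 for SNHG32 and 0.0632 for SNHG12. In that fit 1211 of all 12649 tested genes rose, against 1533 with every library. Calls were also lost without the 5637 library at 0 mM for GAS5 (0.0509) and SNHG12 (0.0697), without the one at 1 mM for SNHG7 (0.0505), without the UM-UC3 library at 4 mM for SNHG5 (0.0848), SNHG7 (0.0621) and SNHG12 (0.191), and without each other UM-UC3 library for SNHG12 (0.0572 to 0.0649).

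The falling genes were lower from 1 mM on, except SNHG26 in UM-UC3. SNHG4, which carries SNORA74A and starts with the longest pyrimidine run of those printed, was at 12.2, 6.01, 3.02 and 4.67 in 5637 and 90.0, 53.7, 41.8 and 19.2 in UM-UC3, a change of −1.62 (SE 0.36, adjusted p = 0.0131). All 6 melatonin libraries were below the DMSO library of their line. MATR3, in the annotation that shares its strand and span with SNHG4, was at 60.3, 22.7, 9.19 and 6.17 in 5637 and 50.6, 64.6, 75.3 and 85.3 in UM-UC3, so the values of the pair went the same way in 5637 and opposite ways in UM-UC3. Reads shared by the pair could be assigned to either gene, and the part of this in their values was not tested. SNHG26, the host of SNORD93 on chromosome 7 at 22854126 to 22872945, was at 15.5, 9.24, 5.76 and 4.17 in 5637 and 4.19, 4.26, 4.08 and 1.39 in UM-UC3, a change of −1.40 (SE 0.25, adjusted p = 0.00589). In 5637 it fell at each step and in UM-UC3 only the 4 mM library differed. SNHG16, the host of the SNORD1 snoRNAs, was at 62.5, 49.5, 42.0 and 30.8 in 5637 and 78.7, 71.2, 56.3 and 60.0 in UM-UC3, a change of −0.69 (SE 0.18, adjusted p = 0.0224). SNHG4 and SNHG26 were called with any single library left out, and SNHG16 was not without the 5637 library at 0 or 4 mM (adjusted p = 0.0795 and 0.092) or the UM-UC3 library at 0 mM (0.052). Without both 4 mM libraries SNHG4 was still called and SNHG26 and SNHG16 were not, with adjusted p of 0.17 and 0.0609.

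**Figure D2:**
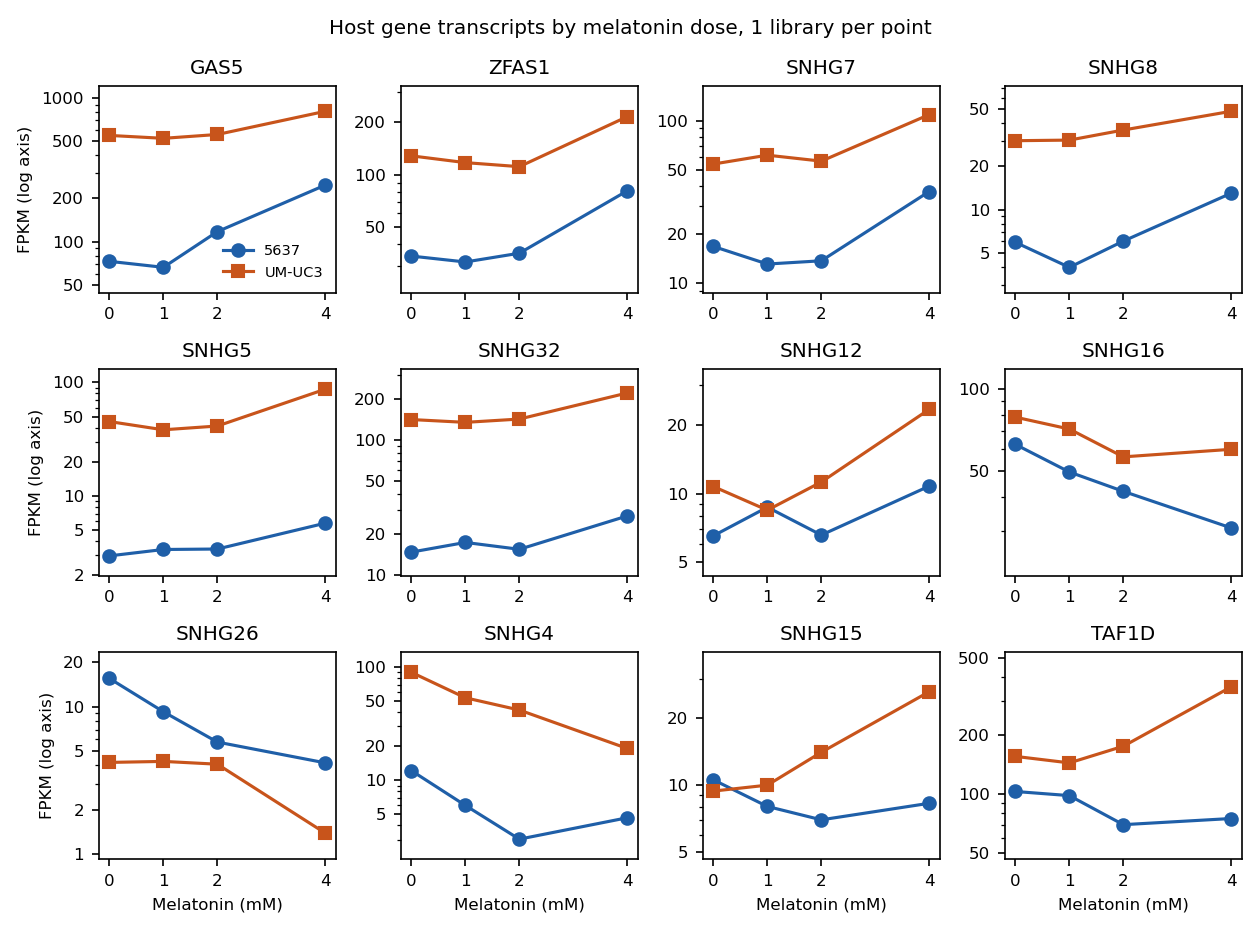
FPKM on a log axis against the melatonin dose in mM for 12 host genes, with 5637 as blue circles and UM-UC3 as orange squares and 1 library per point. GAS5, ZFAS1, SNHG7, SNHG8, SNHG5 and SNHG32 turn upward between 2 and 4 mM in both lines, SNHG4 and SNHG16 are lower from 1 mM on, and SNHG15 and TAF1D climb in UM-UC3 only.

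Counted by direction alone, all 3 melatonin doses lay above DMSO in both lines for 1 host gene, SNHG22, against 17% of all tested genes. They lay below DMSO in both lines for 7, namely DANCR, SNHG3, SNHG4, SNHG10, SNHG16, SNHG20 and SNHG25, against 11.2% of all tested genes. These counts carry no test.

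In 5637 cells 8 host genes rose and 2 fell with the dose, where 23% of all tested genes rose and 20.4% fell. The rising genes were GAS5 (1.92, SE 0.28, adjusted p = 0.000593), ZFAS1, SNHG7, SNHG8 and SNHG32, with SNHG1, SNHG9 and SNHG14 in addition, and the falling genes were SNHG26 (−1.64, SE 0.31, adjusted p = 0.00243) and SNHG16 (−0.98, SE 0.19, adjusted p = 0.0028). SNHG1, which hosts SNORD22, SNORD25, SNORD26, SNORD27, SNORD28 and SNORD30, was at 35.9, 32.0, 31.0 and 89.8 in 5637, a change of 1.37 (SE 0.39, adjusted p = 0.0201). In UM-UC3 it was at 182, 134, 109 and 119, with a fitted change of −0.55 (SE 0.39) that was not called. SNHG14 rose by 1.08 in 5637 (SE 0.21, adjusted p = 0.00285), higher at each dose than at the one before. SNRPN rose in the same way, from 11.9 to 23.2. SNHG9, a short host of SNORA78, was at 1.19, 0.137, 0.914 and 5.16 in 5637 and at 0.158, 0.317, 0.327 and 0.765 in UM-UC3. Its change of 1.84 in 5637 (SE 0.55, limma adjusted p = 0.0244) rests on the 4 mM library. Only that library took its mean FPKM, 1.12, past the filter, so the call is no separate support for a rise. Every rising call in 5637 was lost without the 5637 library at 4 mM (adjusted p of 0.117 to 0.978), as was that of SNHG16 (0.126), while SNHG26 was called with any single library left out (adjusted p of at most 0.042). Without the 5637 library at 4 mM 481 of all 12649 tested genes rose and 292 fell in 5637, against 2904 and 2579 with it. Calls in 5637 were also lost for SNHG32 without the 5637 library at 0 mM (0.0593) and for SNHG7 without the 1 mM library of 5637 (0.0682) or of UM-UC3 (0.0517).

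In UM-UC3 cells 6 host genes rose and 3 fell, where 12.5% of all tested genes rose and 16.7% fell. SNHG15, the host of SNORA9, was at 9.42, 10.0, 14.1 and 26.3 in UM-UC3, higher at each dose than at the one before, a change of 1.46 (SE 0.24, adjusted p = 0.00246). In 5637 it was at 10.6, 8.03, 6.996 and 8.30. TAF1D, a subunit of the selectivity factor that recruits RNA polymerase I to ribosomal DNA, was at 156, 145, 176 and 354 in UM-UC3 (1.27, SE 0.27, adjusted p = 0.00797) and at 103, 98.4, 69.9 and 75.1 in 5637. MED17, which overlaps TAF1D on the other strand, was at 10.8, 10.2, 9.83 and 18.3 in UM-UC3 and 21.8 to 27.3 in 5637. SNHG17, which carries the SNORA71 family, was at 11.6, 12.3, 13.1 and 25.5 in UM-UC3 (1.10, SE 0.31, adjusted p = 0.0233) and at 30.2, 23.0, 15.1 and 19.3 in 5637. These 3 genes went up in UM-UC3 while each melatonin library of 5637 was below its DMSO library.

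SNHG6, the host of SNORD87, was at 50.01, 52.1, 48.3 and 106 in UM-UC3 (1.07, SE 0.27, adjusted p = 0.0164) and at 14.8, 16.0, 13.95 and 18.8 in 5637. SNHG12 (1.20, SE 0.32, adjusted p = 0.0197) and SNHG5 (1.02, SE 0.29, adjusted p = 0.0263) completed the rising genes of UM-UC3. The falling genes were SNHG4 (−2.11, SE 0.46, adjusted p = 0.0101), SNHG26 (−1.16, SE 0.31, adjusted p = 0.0207) and SNHG3. SNHG3, the host of the U17 snoRNAs SNORA73A and SNORA73B, was at 34.8, 22.3, 19.1 and 12.9 in UM-UC3 (−1.29, SE 0.32, adjusted p = 0.0154), lower at each step, and at 11.4, 7.64, 6.64 and 11.1 in 5637. RCC1, whose span overlaps SNHG3 on the same strand, was at 27.6, 23.98, 19.8 and 23.3 in UM-UC3 and at 66.4, 53.0, 40.2 and 26.9 in 5637. Both genes fell from 0 to 2 mM in each line and parted at 4 mM. There RCC1 was above its 2 mM value in UM-UC3 and below it in 5637, and SNHG3 the reverse. As with MATR3 and SNHG4, shared reads could be assigned to either gene. All 9 calls in UM-UC3 were lost without the UM-UC3 library at 4 mM, with adjusted p between 0.288 and 0.999, and those of SNHG3 and SNHG4 also without the one at 0 mM (0.167 and 0.0776). Without the 4 mM library 14 of all 12649 tested genes rose and 33 fell in UM-UC3, against 1583 and 2113 with it. The loss was thus shared by nearly all called genes. SNHG17 was not called with either the 0 mM (0.0619) or the 1 mM (0.0548) library of UM-UC3 left out, nor SNHG5 and SNHG26 without that at 1 mM (0.0663 and 0.0516).

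The dose trend itself differed between the lines for 6 host genes (limma, contrast of the slopes), 3 of them higher and 3 lower in UM-UC3, where 10.4% of all tested genes were higher and 15.3% lower. The difference of the fitted changes, UM-UC3 minus 5637, was 1.77 for TAF1D (SE 0.39, adjusted p = 0.0101), 1.72 for SNHG17 (SE 0.43, adjusted p = 0.018) and 1.73 for SNHG15 (SE 0.34, adjusted p = 0.00698). It was −1.92 for SNHG1 (SE 0.56, adjusted p = 0.0331), −1.32 for GAS5 (SE 0.39, adjusted p = 0.0334) and −1.12 for SNHG14 (SE 0.30, adjusted p = 0.0225). GAS5 went up in both lines, less in UM-UC3, where its own change of 0.60 (SE 0.28, adjusted p = 0.133) was not called, and it started there from a level 7.51 times as high at DMSO. SNHG14 was near 0 in UM-UC3 at every dose and passed the filter only through 5637, so its difference is that of a gene barely measured in 1 of the lines. SNHG3 and SNHG30 were close to the threshold, at −1.35 (SE 0.46, adjusted p = 0.0531) and −1.74 (SE 0.60, adjusted p = 0.057). All 6 calls were lost without the UM-UC3 library at 4 mM, with adjusted p of 0.158 to 0.497. In that fit 22 of all 12649 tested genes were higher and 41 lower in UM-UC3, against 1313 and 1936 with every library. The calls of GAS5, SNHG1, SNHG14 and TAF1D were also lost without the 5637 library at 4 mM, with adjusted p of 0.476, 0.878, 0.129 and 0.0558. There 218 of all tested genes were higher and 452 lower. Without the 5637 library at 0 mM SNHG17 (0.0823) and SNHG14 (0.0542) were not called, nor was SNHG1 without that at 1 mM (0.0567). Without the UM-UC3 library at 0 mM GAS5, SNHG1 and SNHG14 were not called (0.151, 0.135 and 0.0573), nor were GAS5 and SNHG1 without that at 1 mM (0.0565 and 0.0515).

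**Figure D3:**
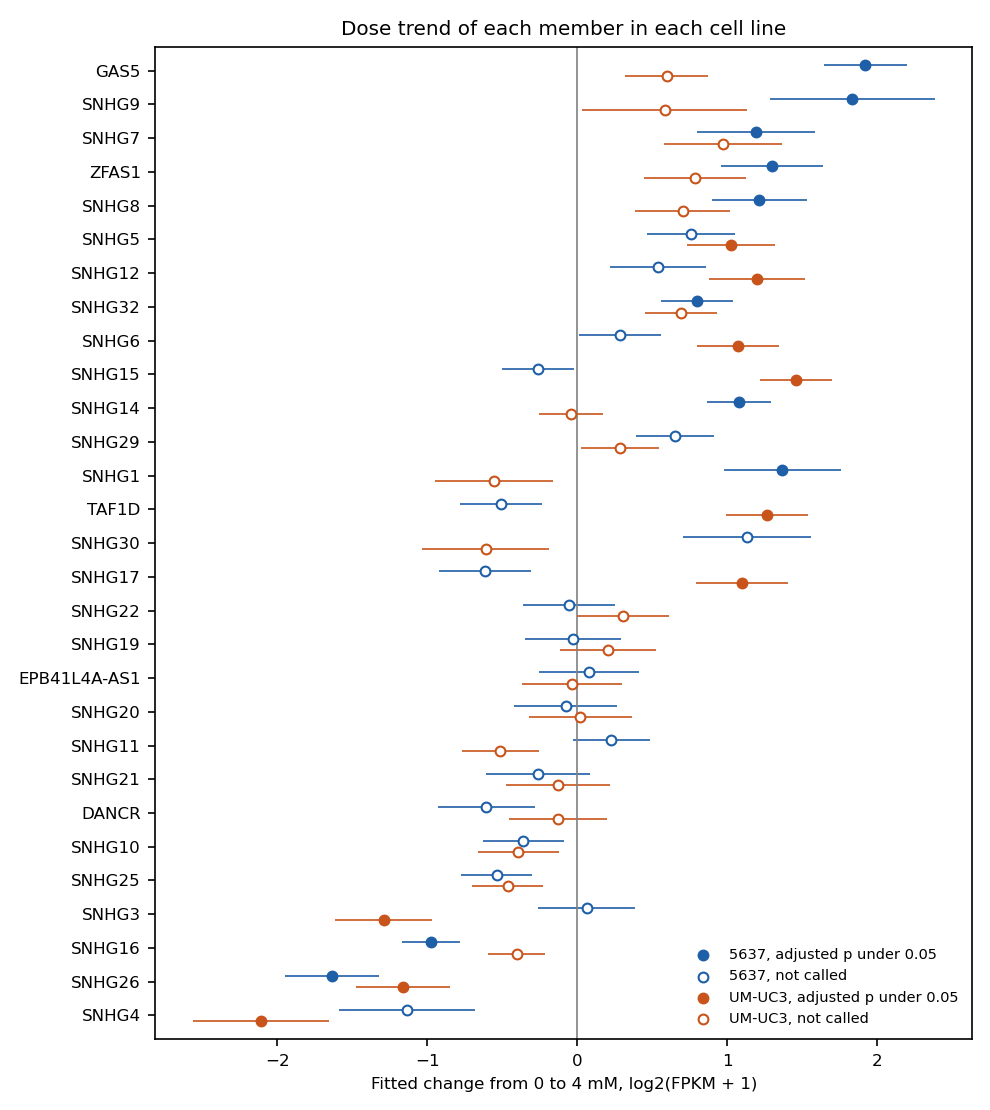
Fitted change from 0 to 4 mM on the log2(FPKM + 1) scale for each tested host gene, with 5637 in blue and UM-UC3 in orange, bars of 1 SE and filled points where limma called the trend, ordered by the fit over both lines. GAS5 and its neighbours lie right of 0 in both lines, SNHG26 and SNHG4 lie left in both, and the colours part at TAF1D, SNHG15, SNHG17 and SNHG1.

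Of the remaining tested genes, 7 were called in no fit. DANCR, an lncRNA known for restraining differentiation of progenitor cells and host of SNORA26, ranged from 8.28 to 16.4 FPKM, with a fitted change over both lines of −0.37 (SE 0.26). SNHG20 ranged from 2.17 to 4.43, SNHG22 from 1.97 to 4.70 and SNHG10 from 1.56 to 3.36. SNHG11 ranged from 0.999 to 2.07, SNHG21 from 0.697 to 1.60 and SNHG25, the host of SNORD104, from 0.823 to 1.799. Their fitted changes over both lines lay between −0.50 for SNHG25 (SE 0.19, adjusted p = 0.0869) and 0.12 for SNHG22 (SE 0.24). SNHG29, the most abundant transcript, had a fitted change of 0.47 (SE 0.21, adjusted p = 0.125). SNHG6, called in UM-UC3, and SNHG9, called in 5637, had changes over both lines of 0.68 (SE 0.25, adjusted p = 0.0725) and 1.21 (SE 0.45, adjusted p = 0.0797).

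A mean FPKM under 1 kept 4 host genes out of the tests. SNHG18, the host of SNORD123, was at 2.80, 2.81, 1.78 and 0.300 in 5637 and at 0.0136 in the DMSO library of UM-UC3 and 0 in its melatonin libraries. SNHG31 ranged from 0.196 to 1.16 and SNHG28 from 0 to 0.281. SNHG27 was above 0 in 1 library, at 0.0544.

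Genes that share a feature with the host genes were counted in the same fits. Of 692 other lncRNAs tested, 33 rose and 48 fell over both lines, with a median change of −0.16. In UM-UC3, 200 of them (28.9%) fell and 33 rose, with a median of −0.41, where the host genes had 3 falling and 6 rising and a median of 0.21. In 5637, 126 rose and 79 fell, with a median of 0.21, beside 0.08 for the host genes. Of 187 other genes whose span held a SNORD or SNORA row, 157 were tested. Among the 28 of these that encode ribosomal proteins, 3 rose over both lines (RPS12, RPS20 and RPL12, with changes of 1.15, 1.13 and 0.60) and 0 fell, by limma, with a median of 0.19. In UM-UC3 10 of the 28 rose. Levels of 27 of them were higher in UM-UC3 and of 1 lower, with a median difference of 1.26. Among the other 129, 13 rose and 15 fell, with a median of −0.06. ODC1, the rate-limiting enzyme of polyamine synthesis, changed by 1.14, and RAB30, PHLPP2 and KANSL2 by 1.45, 0.89 and 0.71. RBMX, an RNA-binding protein, changed by −1.49, RANBP1, a regulator of the Ran cycle, by −1.48, DGLUCY by −1.50 and TNPO2, a nuclear import receptor, by −1.005.

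The proteins that bind or assemble snoRNAs were counted next. Of 19 tested members of a list of 20 snoRNP proteins and assembly factors, 1 rose and 6 fell over both lines, with a median of −0.28. In 5637 11 of the 19 fell and 1 rose. Fibrillarin (FBL), the box C/D methyltransferase, was at 190, 157, 110 and 67.4 FPKM in 5637 (−1.52, SE 0.19, adjusted p = 0.000323) and at 166, 134, 133 and 136 in UM-UC3. GAR1, a box H/ACA protein, was at 33.8, 25.0, 18.4 and 11.4 in 5637 (−1.48, SE 0.19, adjusted p = 0.000296) and at 32.7, 30.3, 26.4 and 30.7 in UM-UC3. In UM-UC3 4 rose (NOP10, RPAP3, ZNHIT3 and SHQ1) and 0 fell, and for 8 of the 19 the dose trend was higher in UM-UC3 than in 5637. Over both lines the assembly factor ZNHIT3 changed by 0.77, the helicases RUVBL1 and RUVBL2 by −0.74 and −0.65, and the nucleolar phosphoproteins TCOF1 and NOLC1 by −1.24 and −0.59. All 5 were called.

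Of 20 NMD factors 2 rose over both lines and 0 fell, with a median of 0.00. PNRC2, a decapping co-factor, was at 40.5, 56.9, 64.1 and 143 in 5637 and 59.2, 80.3, 61.9 and 79.5 in UM-UC3 (1.02, SE 0.30, adjusted p = 0.0376). EIF4A3, of the exon junction complex, was at 74.6, 59.2, 68.4 and 209 in 5637 and 20.8, 18.6, 19.6 and 29.9 in UM-UC3 (1.09, SE 0.34, adjusted p = 0.0462). Of 16 transcripts known as NMD targets, 10 rose over both lines and 0 fell, with a median of 1.69. Several of these also belong to the response to amino acid shortage and unfolded protein, so the list is not specific to decay. ATF3 was at 1.60, 2.57, 10.5 and 63.1 in 5637 and 7.36, 13.9, 48.5 and 135 in UM-UC3 (4.49, SE 0.30, adjusted p = 0.00061), and GADD45A at 16.5, 24, 33.7 and 138 and at 36.7, 49.9, 75.4 and 174 (2.63, SE 0.23, adjusted p = 0.000691). DDIT3 and CDKN1A changed by 4.10 and 3.31. These 4 were named for their small p over both lines, and in all 4 the values were above DMSO at each dose. Not all of the list had that course, as CARS1 and SLC7A11 lay below DMSO at some dose in UM-UC3. Among the rising host genes SNHG5, SNHG12 and SNHG32 in 5637 and SNHG7 and SNHG8 in UM-UC3 had it within a line.

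Of 15 TOP messenger RNAs of translation factors 0 rose over both lines and 1, EIF3E, fell (−0.60, SE 0.16, adjusted p = 0.0251), with a median of −0.24. EIF3E was at 206, 160, 156 and 124 in 5637 and 670, 563, 473 and 456 in UM-UC3. In 5637 6 of the 15 fell. Their level was higher in UM-UC3 for 12 of the 15, with a median difference of 1.30.

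**Figure D4:**
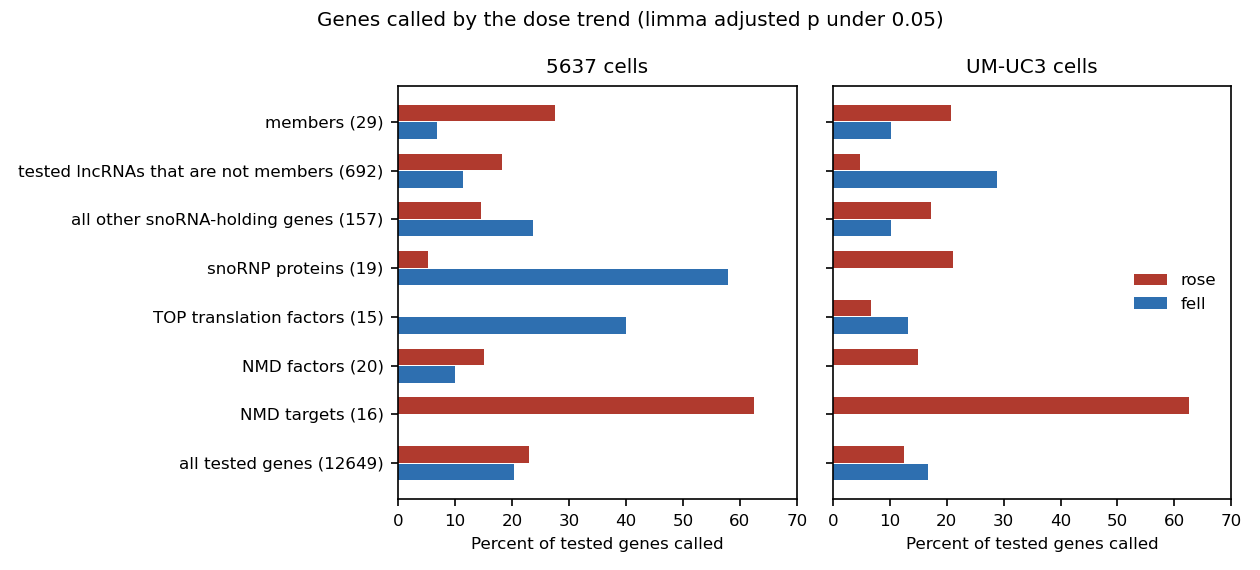
Percent of the tested genes of each list called as rising (red) or falling (blue) by the dose trend in 5637 (left) and UM-UC3 (right), with the number tested in parentheses. The host genes (members) have 27.6% rising and 6.9% falling in 5637, beside 23% and 20.4% of all tested genes. In UM-UC3 they have 20.7% and 10.3%, beside 12.5% and 16.7%. The snoRNP proteins have 57.9% falling in 5637 and 0 in UM-UC3, and NMD targets have 62.5% rising in each line.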

How the data were processed

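Total RNA of the 8 cultures was made into directional poly(A) libraries and sequenced as pairs of 150 bases. Trimming used Cutadapt 1.18 and Trimmomatic 0.35 (reads under 35 bases dropped), and alignment to GRCh38 used HISAT2 2.1.0, both from the methods. CASAVA 1.8, FastQC, StringTie and edgeR appear in the submitters' processing notes. The annotation release and any use of strand in counting are unnamed there (not given in the sources used here). Per gene and library the authors deposited a normalized value without a unit, taken as FPKM, the unit StringTie writes, since values were fractional and library totals differed. A second sheet of 22465 genes held identical values, and a further sheet was not used.

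FPKM values were set to log2(FPKM + 1), and the 12649 genes whose mean FPKM reached 1 were fitted with limma 3.58.1 in R 4.3.3 (eBayes, trend and robust). Dose entered as a straight line with a term for the cell line, then with a slope per line, and p-values were adjusted by the Benjamini-Hochberg method over all genes tested, with a threshold of 0.05. The dose fits were tested on simulated libraries with known dose changes, where every changed gene that was called had the sign it was given, while the contrast between the lines called no gene whose slopes had been set apart. Far fewer genes were changed there than were called in the data. The simulation therefore checked signs and does not show how often calls in the data are right. No counts were available, so no interval from counting was given. Tables were handled in Python 3.11.15 with pandas 2.3.3 and drawn with matplotlib 3.10.9. Alternatives were trimmed mean rescaling, pseudocount 0.1, no filter, a minimum mean of 5, log dose, any dose against DMSO, no line term, each library left out, both 4 mM libraries left out and, chosen after seeing the data, the lines paired by dose. The host genes, lists and alternatives were chosen with earlier results of these data known. Every host gene with a mean of at least 1 is named. From each list up to 4 genes with the smallest p over both lines are named in each direction, or all where 5 or fewer were called. FBL and GAR1, and the genes named for UM-UC3 among the snoRNP proteins, were named in addition after their values were seen, as were the genes that overlap a host gene.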

Additional observations from a re-analysis of the deposited data

Results flagged for a closer look

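The dose trend differed between the lines for 6 host genes by a test of the difference itself. Each direction held 10.3% of the tested host genes. For the whole tested set the shares were 10.4% (higher in UM-UC3) and 15.3% (lower), so the host genes did not exceed the background. All 6 calls depended on the 4 mM library of UM-UC3 and ended when it was dropped. Dropping it left 22 higher and 41 lower among the 12649 genes, so the loss was not particular to host genes. The fitted change from 0 to 4 mM, UM-UC3 minus 5637, was −1.32 for GAS5, −1.92 for SNHG1 and −1.12 for SNHG14, and 1.77 for TAF1D, 1.72 for SNHG17 and 1.73 for SNHG15. SNHG15 and SNHG17 also had every melatonin library above DMSO in UM-UC3 and every one below DMSO in 5637. For both the difference of the log2 change at 4 mM against DMSO was 1.7, and that difference between single libraries was not tested.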

How the results depend on the processing

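The difference in level between the lines depended least on the processing. With each library left out in turn, 14 to 17 host genes were higher in UM-UC3 and 2 to 4 lower. The lower count was 5 with no filter and 1 at a mean of at least 5. With the lines paired by dose, chosen after seeing the data, 16 were higher and 2 lower, and SNHG15 and SNHG30 were not called (adjusted p = 0.0867 and 0.0779). The dose calls depended on the scale of dose and on the 4 mM libraries. With the logarithm of the dose 0 rose over both lines (7 at an unadjusted p under 0.05), 2 rose in 5637, 1 rose in UM-UC3, and 0 differed between the lines in either direction (3 and 3 unadjusted). Falling there were 3 over both lines, 3 in 5637 and 2 in UM-UC3. Of all 12649 tested genes 1097 rose over both lines there, 1972 in 5637 and 592 in UM-UC3, while 1075, 1572 and 870 fell. The trend was higher in UM-UC3 for 277 and lower for 486. With melatonin at any dose against DMSO 0 were called in any dose fit in either direction by limma, with 3 falling over both lines and 2 falling in UM-UC3 at an unadjusted p under 0.05. Of all 12649 tested genes 0 were called in those fits too, so that setting does not set the host genes apart. Without the line term 0 rose and 0 fell (0 and 1 unadjusted), where 3 of all tested genes rose and 0 fell. With no filter 0 rose and 1 fell over both lines (9 and 5 unadjusted), 2 rose and 3 fell in 5637, 1 rose and 0 fell in UM-UC3 (7 and 4), and 0 differed (4 and 5). Of the 33317 genes of that fit 517 rose and 587 fell over both lines, 2794 rose and 1855 fell in 5637, and 125 were higher and 193 lower in the difference. Without both 4 mM libraries 0 rose over both lines, in 5637 or in UM-UC3 (1, 2 and 2 unadjusted), and 0 differed in either direction (5 and 1). Falling were 2, 3 and 2 (8, 10 and 6 unadjusted). Of the falling calls with every library, SNHG4 over both lines and in UM-UC3 and SNHG26 in 5637 were among them, and the others were lost. Of all 12649 tested genes 192, 723 and 177 rose and 159, 428 and 348 fell without them, and 46 were higher and 70 lower in the difference. With no 4 mM value the line was fitted over 0, 1 and 2 mM alone, and its change is extended to 4 mM. There the fitted changes turned negative, to −0.15 for ZFAS1 and −0.22 for SNHG7 over both lines, and, also without that line's own 4 mM library alone, to −0.55 for SNHG7, −0.39 for SNHG9 and −0.4 for SNHG1 in 5637 and −0.25 for SNHG5 and −0.1 for SNHG6 in UM-UC3. With any 1 library left out these reached at most 2.01, 3.27, 2.1, 1.64 and 1.47 in that order. With each library left out in turn, the counts were 0 to 7 rising and 2 to 4 falling over both lines, 0 to 9 rising and 2 to 3 falling in 5637, 0 to 8 rising and 0 to 3 falling in UM-UC3, and 0 to 3 higher and 0 to 7 lower in UM-UC3 for the difference. The counts of 0 came without a 4 mM library, or, for the lower difference, with the UM-UC3 DMSO library left out. Without the UM-UC3 library at 4 mM 14 of all tested genes rose and 33 fell in UM-UC3. With the UM-UC3 DMSO library left out 1559 of all tested genes had a lower difference. The 7 lower differences came on leaving out 5637 at 0 mM, 5 on leaving out 5637 at 2 mM and 1 on leaving out UM-UC3 at 1 mM, and 1 gene fell in UM-UC3 on leaving out its DMSO library. Trimmed mean rescaling and a pseudocount of 0.1 kept every count within 1.5 times, but rescaling ended the calls of SNHG12 over both lines, SNHG7 in 5637 and the level of SNHG30 (adjusted p = 0.051, 0.0525 and 0.0547), and the pseudocount those of SNHG9 in 5637 and of the SNHG14 difference (0.0782 and 0.0784). Of 849 values of called genes under the alternatives, 618 kept sign and call, 219 kept the sign and lost the call and 12 changed sign. Of 1334 values of genes not called, 38 gained a call, and 123 of the other 1296 changed sign. The causes were not tested. The depth of the libraries is unknown and limits the genes of low FPKM most.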
